A study of Mus musculus with 4 samples.

Results

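Mid-sized CpG-island-like clusters were taken as runs of closely spaced CCGG positions on the mouse autosomes, and their cutting by the methylation-sensitive enzyme HpaII was compared between Emerald-high and Emerald-negative embryonic stem (ES) cells. A CCGG was called dense where at least 10 CCGG positions, itself included, lay within 500 bp on either side, and dense sites at most 500 bp apart were joined into runs. The clusters are the 5468 autosomal runs that span at least 500 and under 2000 bp, of 9856 dense runs in all. The other autosomal runs were 3872 short ones (under 500 bp) and 93 broad ones (2000 bp or more). The rule used positions only, not tag counts. The 5468 runs held 94267 CCGG positions, which was 5.91% of the 1594137 positions in the genome (build mm9) and 72.4% of the dense ones. Their median span was 765 bp (quartiles 632 and 972) and their median number of dense sites was 16 (quartiles 13 and 21, range 2 to 70).

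The cells were MC1-ZE7, an ES cell line from 129S6/SvEvTac mice at passage 31, grown without feeder cells in serum with leukemia inhibitory factor. The line carries the fluorescent protein Emerald under the Zscan4c promoter (pZscan4c-Emerald), and cells were separated by flow cytometry into an Emerald-high and an Emerald-negative fraction. Both fractions come from this 1 line and carry the reporter, and the DNA of each was cut with HpaII or with MspI for HELP tagging. Each of the 4 combinations has 1 library, so no value has a replicate check, and every interval and p-value compares libraries, not conditions. In Emerald-high cells the library totals were 5662614 HpaII and 9372711 MspI tags, and in Emerald-negative cells 9535691 HpaII and 9307616 MspI tags.

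CpG islands are stretches of DNA rich in G, C and CpG, found at the starts of most housekeeping and many developmental genes, and are usually free of DNA methylation. Most other CpGs of the mammalian genome are methylated. HpaII cuts CCGG only where the central CG is unmethylated, and MspI cuts it whether methylated or not, so HpaII tags relative to MspI tags report on the absence of methylation. Zscan4 genes are active in the early embryo shortly after fertilization, and in ES cultures they switch on in a few cells at a time.

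Promoters that lie in the clusters show what the assay reads. They were chosen because they hold a run with very many HpaII tags (Gse1), the genes of the methylation enzymes found in the clusters (Dnmt3a and Dnmt3b, which place methyl groups on unmethylated DNA, and Tet2, which oxidises them) and the named run with the largest called fall (Abcd3, a transporter of the peroxisomal membrane). Each sequence is a RefSeq window of 300 bases in build GRCm38.p6, from 250 bases before to 50 bases after the annotated start, written 5′ to 3′ on the gene's strand, with every CCGG in capitals. The windows are Gse1 at chr8:120537159-120537458 (plus strand), Dnmt3a at chr12:3806730-3807029 (plus), Dnmt3b at chr2:153649199-153649498 (plus), Tet2 at chr3:133544341-133544640 (minus) and Abcd3 at chr3:121814860-121815159 (minus). Abcd3 has a second annotated start further upstream, with its window at chr3:121815253-121815552. Dnmt3a has a second one further downstream, at chr12:3806910-3807209. Neither of these windows is printed.
Gse1: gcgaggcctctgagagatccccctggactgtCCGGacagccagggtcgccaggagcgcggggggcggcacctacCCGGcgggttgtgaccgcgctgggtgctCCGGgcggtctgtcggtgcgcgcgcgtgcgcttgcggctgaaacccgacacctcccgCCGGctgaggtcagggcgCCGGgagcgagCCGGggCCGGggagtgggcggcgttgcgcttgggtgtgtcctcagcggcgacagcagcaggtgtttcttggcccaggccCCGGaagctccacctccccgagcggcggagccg
Dnmt3a: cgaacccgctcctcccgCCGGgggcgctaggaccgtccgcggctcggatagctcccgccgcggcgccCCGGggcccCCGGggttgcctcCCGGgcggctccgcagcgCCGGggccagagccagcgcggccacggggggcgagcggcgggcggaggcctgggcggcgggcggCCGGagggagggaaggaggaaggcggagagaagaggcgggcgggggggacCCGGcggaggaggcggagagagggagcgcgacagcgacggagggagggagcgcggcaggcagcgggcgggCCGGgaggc
Dnmt3b: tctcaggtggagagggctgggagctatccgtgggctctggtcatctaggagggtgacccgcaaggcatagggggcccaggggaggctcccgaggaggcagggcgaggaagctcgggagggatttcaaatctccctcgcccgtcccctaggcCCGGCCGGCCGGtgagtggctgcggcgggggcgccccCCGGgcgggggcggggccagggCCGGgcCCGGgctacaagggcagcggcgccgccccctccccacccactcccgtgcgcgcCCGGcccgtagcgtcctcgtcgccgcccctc
Tet2: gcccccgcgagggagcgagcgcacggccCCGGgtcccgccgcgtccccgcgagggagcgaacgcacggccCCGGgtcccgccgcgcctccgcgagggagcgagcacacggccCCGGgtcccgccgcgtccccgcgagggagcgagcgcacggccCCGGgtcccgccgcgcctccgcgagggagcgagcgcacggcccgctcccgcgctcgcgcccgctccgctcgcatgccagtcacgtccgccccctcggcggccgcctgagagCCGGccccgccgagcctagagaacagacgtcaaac
Abcd3: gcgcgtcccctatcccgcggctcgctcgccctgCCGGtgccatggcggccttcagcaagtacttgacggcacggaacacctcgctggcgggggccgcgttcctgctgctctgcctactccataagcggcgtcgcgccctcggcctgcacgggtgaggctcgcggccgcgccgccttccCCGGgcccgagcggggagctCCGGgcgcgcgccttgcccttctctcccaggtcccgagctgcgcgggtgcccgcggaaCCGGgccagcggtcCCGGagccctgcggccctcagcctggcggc

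In the Gse1 window the CCGG sites, read from left to right, had 12, 10, 11, 7, 0, 0, 3 and 17 HpaII tags in Emerald-high cells, against 23, 29, 40, 14, 0, 0, 7 and 48 in Emerald-negative cells. The fifth and the sixth site, which had no tag in any library, lie 18, 11 and 6 bp from their neighbours. The Dnmt3a window had 5, 0, 0, 0, 2, 0, 5 and 3 HpaII tags in Emerald-high cells, against 24, 0, 0, 0, 5, 0, 13 and 5 in Emerald-negative cells. The 3 sites after the first are 9 and 13 bp apart, while the sixth, also without a tag, lies 64 and 50 bp from its neighbours. In the Dnmt3b window 3 CCGG stand directly behind each other, and the middle one had 0 tags in all 4 libraries. In Tet2, the first 4 CCGG repeat at a distance of 42 bp within nearly the same sequence. They had 12.5, 7, 9.5 and 11 HpaII tags in Emerald-high cells, against 37.5, 21.5, 28.5 and 35.5 in Emerald-negative cells, and no label or header explains the fractions of a tag. The Abcd3 window had 22, 1, 1, 6 and 5 HpaII tags in Emerald-high cells, against 67, 1, 14, 21 and 7 in Emerald-negative cells. Single sites thus hold few tags, and values below are sums over runs.

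The clusters were not of 1 kind. In 1249 runs (22.8%), at least 50% of the stretches of 5 successive CCGG distances also occurred outside the run, at a median of 541 other places for the most frequent stretch. Of these runs with repeated spacing, 803 had no tag in any library and 37 were covered, which means 20 or more tags in both MspI libraries. The other 4219 runs are called runs with spacing found once, although up to 50% of their stretches could also occur elsewhere. Their most frequent stretch occurred at a median of 0 and at most 642 other places. Runs too short to hold such a stretch were counted with them. Of these 4219 runs, 15 had no tag and 3898 (92.4%) were covered. Some lengths were preferred, mostly by repeated runs. Exactly 520 bp were spanned by 171 members (163 with repeated spacing), 637 bp by 142 (133) and 732 bp by 108 (104). Likewise 849 bp were spanned by 88 members (83) and 944 bp by 63 (55), a ladder with steps of 117 and 95 bp in turn. The commonest stretch, with distances of 156 and 52 bp in alternation, was found at 1491 places. Sites within 2000 bp of the runs without a tag were often without one too (66.0% of 1379 sites), against 6.07% of 29010 sites near runs with a tag and 24.2% of all sites. No repeat annotation was used here, so the repeated runs are named by their spacing alone. No placed gene start lay in them, but gene placement, described below, needs a spacing found at exactly 1 place and could hardly reach them. Whether CpG-island-like describes the repeated runs was therefore not tested. They held 5682 of the clusters' HpaII tags in Emerald-high cells, against 12566 in Emerald-negative cells.

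**Figure D1:**
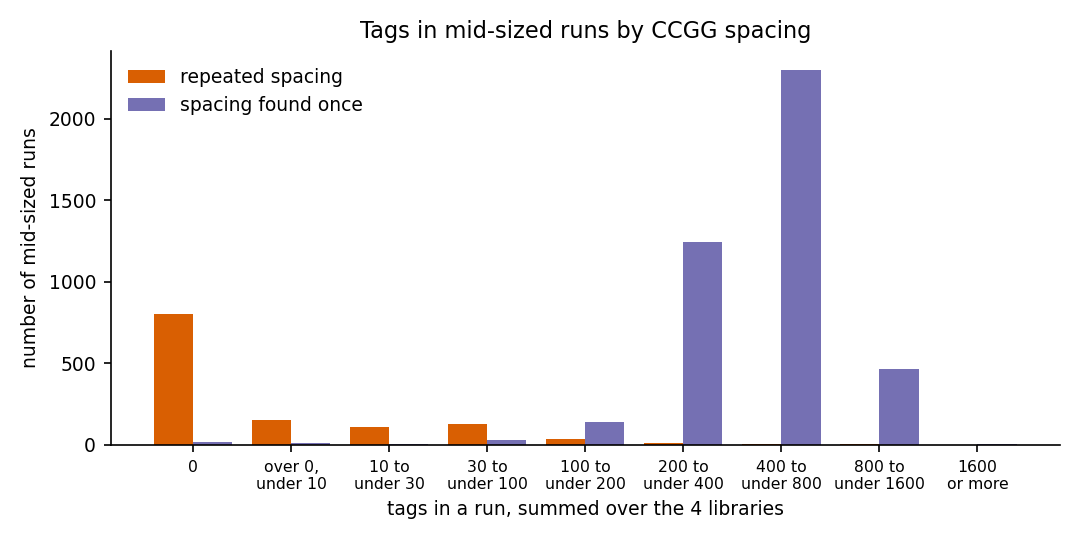
Number of mid-sized runs (vertical axis) by the tags summed over the 4 libraries (horizontal axis, in classes), for the 1249 runs with repeated CCGG spacing and the 4219 others, called spacing found once. Of the repeated runs, 803 had no tag, while 2301 runs with spacing found once held 400 to under 800 tags.

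HpaII tags from the clusters were relatively fewer in Emerald-high than in Emerald-negative cells. The clusters held 520223 HpaII tags in Emerald-high cells, 9.19% of that library, and 1218805 in Emerald-negative cells, 12.8%. They held 249643 MspI tags in Emerald-high cells, 2.66% of that library, and 208069 in Emerald-negative cells, 2.24%. The log2 HpaII/MspI ratio, scaled to library totals, differed by -0.73 between Emerald-high and Emerald-negative cells (95% counting interval -0.739 to -0.720). The HpaII libraries alone gave -0.48 and the MspI libraries alone 0.25, so a part of the difference stands in the enzyme that does not read methylation. What made the MspI libraries differ was not tested. The difference was below 0 on 19 of 19 autosomes, with a mean of -0.73 ± 0.022 (SD over chromosomes of the same libraries), between -0.78 on chromosome 4 and -0.68 on chromosome 12.

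All these values are relative to the library. At sites that are not dense the same difference was 0.095 (0.0933 to 0.0975), and all dense runs together gave -0.72. Scaled to the tags at dense sites instead, the clusters stood at -0.01 (-0.0183 to 0.000897), because they hold most of those tags. The data therefore give the level of the clusters against the rest of the genome, not an absolute loss or gain of cutting. The clusters averaged 5.52 HpaII and 2.65 MspI tags per site in Emerald-high cells and 12.9 HpaII and 2.21 MspI tags in Emerald-negative cells, against 3.55, 5.88, 5.98 and 5.84, in the same order, over all sites.

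Run by run, the clusters were highly cut in both fractions, and their scores were close together. The score is 100 × (2/π) × arctan of the scaled HpaII/MspI ratio, so that 0 means no HpaII tag and 50 equal scaled tags. Covered runs had a median of 118 HpaII and 56 MspI tags in Emerald-high cells and of 279 HpaII and 46 MspI tags in Emerald-negative cells. Over the 3935 covered runs the median score was 82.3 in Emerald-high cells (quartiles 80.1 and 84.3) and 89.3 in Emerald-negative cells (87.8 and 90.6). Scores over 80 were reached by 76.1% of runs in Emerald-high cells (exact interval 74.7 to 77.4) and by 98.5% in Emerald-negative cells (98.1 to 98.9). Scores over 90 were reached by 6 runs in Emerald-high cells and by 1421 in Emerald-negative cells. The score was lower in Emerald-high cells in 3809 runs (96.8%). Scaled to dense sites, the median score was 51.4 for Emerald-high and 51.9 for Emerald-negative cells, so neither the level of the scores nor the gap between the fractions is independent of the scaling.

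**Figure D2:**
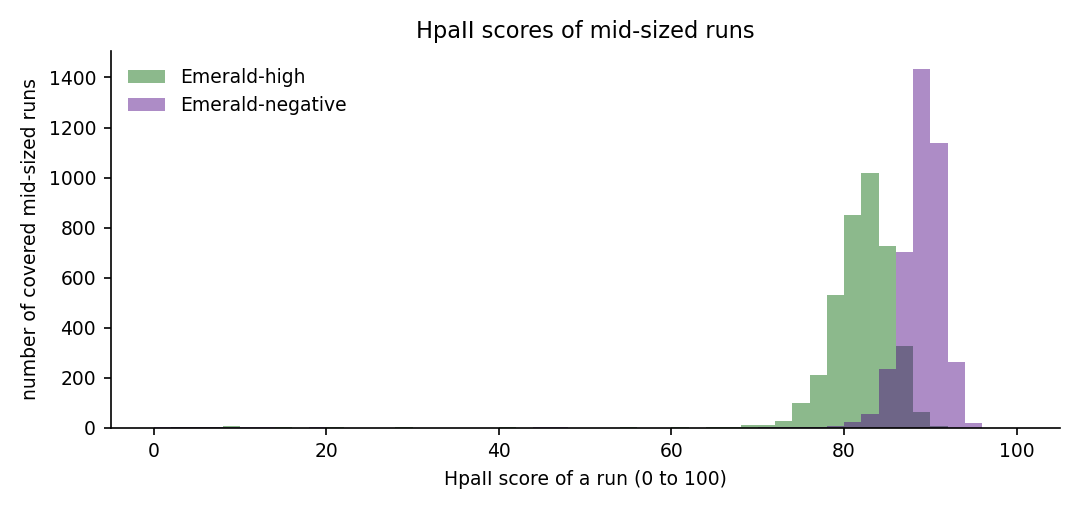
Number of the 3935 covered mid-sized runs (vertical axis) by HpaII score (horizontal axis, 0 to 100, in steps of 2) in Emerald-high and Emerald-negative cells, 1 pair of libraries each. The medians are 82.3 in Emerald-high cells, against 89.3 in Emerald-negative cells, and few runs lie below 60 in either fraction.

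The fractions differed by a similar amount in most runs. The median run difference was -0.73 (quartiles -0.98 and -0.49). Its SD over runs was 0.404, where counting error alone has a root mean square of 0.345. A called run needed a Benjamini-Hochberg adjusted p under 0.05 in Fisher's exact test over all covered dense runs and a change of at least 2-fold. This gave 4 runs higher and 890 lower in Emerald-high cells, 0.102% and 22.6% of 3935. Over all 5348 covered dense runs 0.206% were called higher and 20.5% lower. By adjusted p alone 5 runs were higher and 1899 lower, against 0.243% and 42.4% of all covered dense runs. With the libraries scaled to dense sites 6 runs were higher and 2 lower, against 0.262% and 0.0374% of all covered dense runs. With a minimum of 50 tags in each MspI library, fewer runs were tested. Of these, 210 were called lower, a count whose share was not computed, and the median difference was -0.67.

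Between the fractions, the order of the runs followed their size more than their score. Across the 3935 runs, tag counts had a Spearman correlation of 0.94 between the HpaII libraries and 0.85 between the MspI libraries, while the scores had 0.14. These are descriptions across runs of the same libraries, and runs with more sites hold more tags in each.

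**Figure D3:**
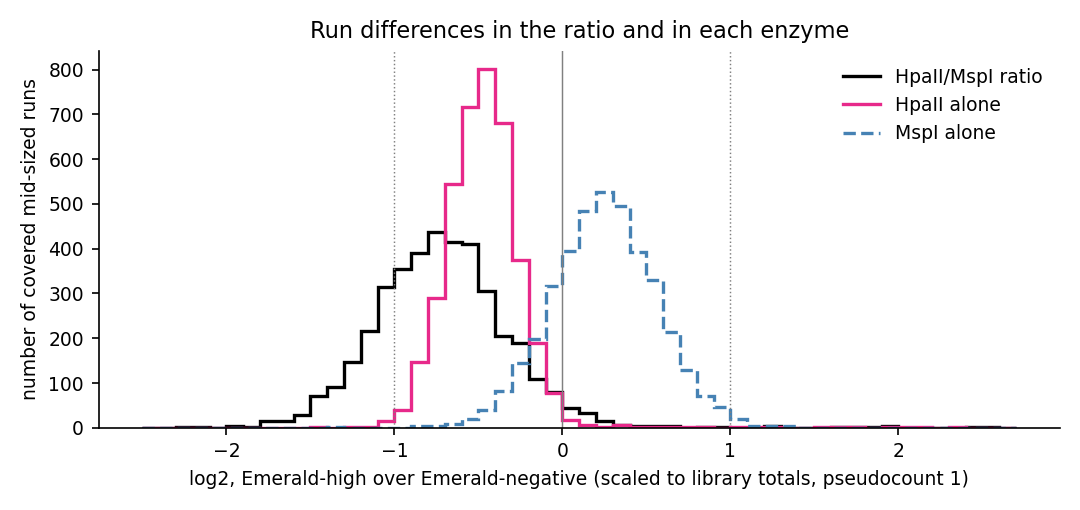
Number of the 3935 covered mid-sized runs (vertical axis) by the log2 value of Emerald-high over Emerald-negative cells (horizontal axis, scaled to library totals, pseudocount 1), for the HpaII/MspI ratio and for each enzyme alone. Dotted lines mark a 2-fold change. The medians are -0.73 for the ratio, -0.47 for HpaII and 0.25 for MspI.

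The difference was largest in the middle of a run and shrank outward. Sites less than 0.167 of the span from the centre gave -0.83 (-0.846 to -0.810), with scores of 81.8 in Emerald-high cells, against 89.5 in Emerald-negative cells. The remaining sites of the runs gave -0.68, and inner minus outer sites differed by -0.14 (-0.165 to -0.122), of which -0.085 stood in the HpaII and 0.059 in the MspI libraries. Outside the runs, the difference was -0.51 up to 250 bp from the edge, -0.42 from there to 500 bp, -0.27 to 1000 bp, -0.17 to 1500 bp and -0.097 to 2000 bp. From the centre to just outside the runs, the Emerald-high score rose slightly, from 81.8 to 82.6, while the Emerald-negative score fell from 89.5 to 87.7. At 1500 to 2000 bp the scores were 66.7 in Emerald-high cells, against 68.5 in Emerald-negative cells. Over this outer distance the scores of the 2 fractions approached each other while both went down. Number of sites followed a like order, from -0.61 (-0.669 to -0.549) in runs of 2 to 9 dense sites to -0.77 (-0.807 to -0.733) in runs of 30 or more. By span there was no such order, with -0.70, -0.73, -0.71, -0.76 and -0.71 in 5 classes from 500 to under 2000 bp.

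**Figure D4:**
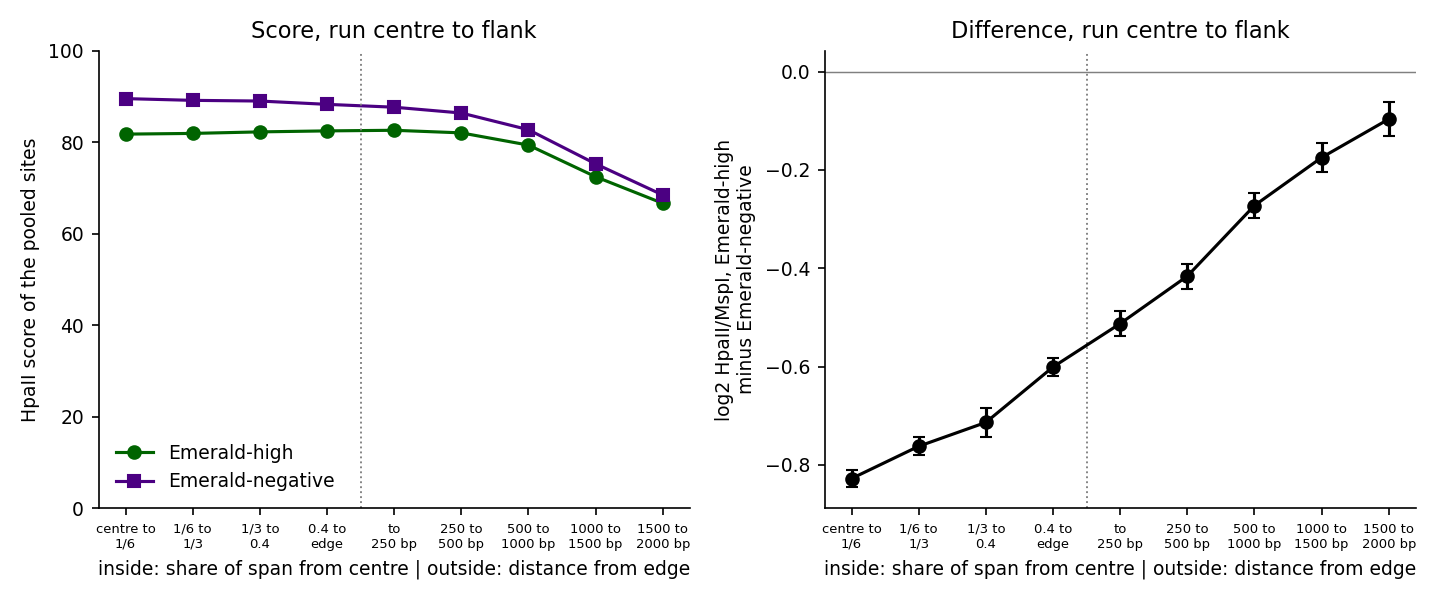
Left, HpaII score of the pooled sites (vertical axis, 0 to 100) in Emerald-high and Emerald-negative cells, and right, log2 HpaII/MspI difference with 95% counting intervals, by place of the site (horizontal axis, from the run's centre to its edge as a share of the span, then in bp from the edge). The dotted line is the edge of the run. The difference goes from -0.83 in the centre to -0.097 at 1500 to 2000 bp outside.

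Both the number of tags and the size of the difference varied with the distance to the next CCGG. Tags are read from either side of a cut, and the files hold them in 2 parts per site. Which part is which side is not stated in the sources used here and was read from the counts: among member sites with a close neighbour on the lower-coordinate side, the first part averaged 0.097 tags and the second 13.5, summed over the 4 libraries, and with a close neighbour on the other side they averaged 13.4 and 0.103. In the clusters 26.0% of sides have the next CCGG less than 20 bp away. By this assignment, which rests on the same counts and so is no separate evidence, such a side averaged 0.023 HpaII and 0.009 MspI tags in Emerald-high cells and 0.061 HpaII and 0.008 MspI tags in Emerald-negative cells. Its site's other side averaged 3.15 HpaII tags in Emerald-high cells, against 7.53 in Emerald-negative cells. The sites without tags in the printed Gse1 and Dnmt3a windows mostly have such neighbours.

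Among sides that gave tags, the difference was -1.03 where the next CCGG lay at 20 to 27 bp (-1.07 to -0.988) and -1.02 at 28 to 39 bp (-1.05 to -0.997). It was -0.69 at 40 to 79 bp, -0.64 at 80 to under 200 bp and -0.45 at 200 bp or more (-0.481 to -0.411). The MspI libraries alone gave 0.46 and 0.47 in the 2 classes under 40 bp and 0.17, 0.26 and 0.11 in those above, while the HpaII libraries gave -0.57, -0.55, -0.52, -0.38 and -0.33 from near to far. With only sides of 40 bp or more, an alternative chosen after seeing the data, the clusters stood at -0.65 (-0.663 to -0.642) and inner minus outer sites at -0.13 (-0.154 to -0.103). Fragments between neighbouring CCGG sites are as short as their distance, and whether their recovery differed between the libraries was not tested.

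**Figure D5:**
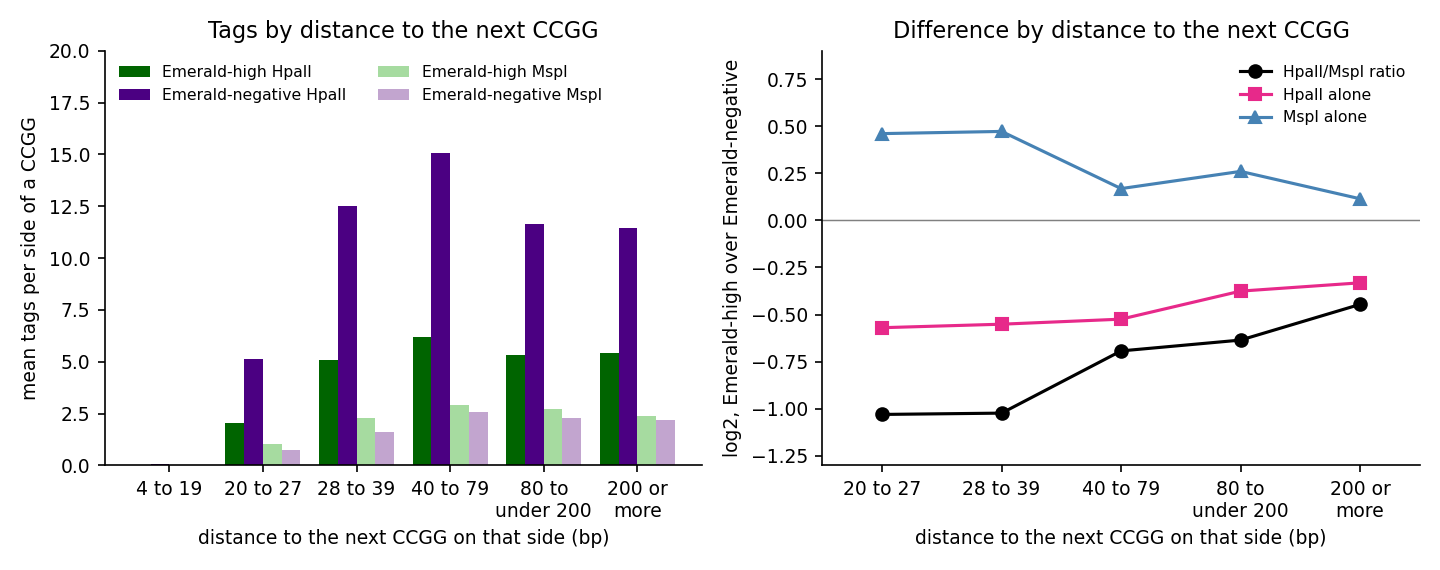
Left, mean tags per side of a CCGG in covered mid-sized runs (vertical axis) in the 4 libraries, and right, log2 value of Emerald-high over Emerald-negative cells for the HpaII/MspI ratio and each enzyme alone, both by the distance in bp to the next CCGG on that side (horizontal axis). Sides with a neighbour at 4 to 19 bp averaged at most 0.061 tags and are left out on the right. MspI alone is at 0.46 and 0.47 under 40 bp and at 0.26 or less above.

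Clusters on chromosome 8 held more tags per site than those of every other autosome in each library, among runs with spacing found once. Such runs there averaged 10.6 HpaII and 5.06 MspI tags per site in Emerald-high cells, against medians of 7.25 and 3.39 over the other 18 autosomes (ranges 6.73 to 7.85 and 3.21 to 3.74). In Emerald-negative cells they averaged 24.9 HpaII and 4.24 MspI tags per site, against 16.9 (15.7 to 18.1) and 2.83 (2.60 to 3.12). The ratio to the median of the other autosomes was 1.46 and 1.49 for HpaII and MspI in Emerald-high cells, against 1.47 and 1.498 in Emerald-negative cells. Because both enzymes and both fractions share it, the HpaII/MspI difference of chromosome 8 was -0.73, like the mean of the autosomes. How many copies of the chromosome the cells carry was not measured here.

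Genes were placed without a genome of the files' build, by finding the exact CCGG distances of a promoter window among the positions in the files. Of 32851 RefSeq promoter windows, 2568 (7.82%) hold 5 or more CCGG. Of these, 2546 matched at 1 place, always on the gene's own chromosome, while 14 of the same windows with distances in reversed order matched at 1 place. In all, 1511 genes were placed within 1000 bp of 1347 clusters (24.6%), and in 1310 clusters a start lay inside. Windows in clusters had a median GC content of 73.0% and a median observed-to-expected CpG ratio of 0.929, against 53.0% and 0.387 over all windows. Windows with 5 CCGG are GC-rich by choice, so the other clusters may hold genes that this method cannot place.

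Covered clusters with a placed gene had scores within a narrow band. The 1285 runs ran from 64.6 to 91.0 in Emerald-high cells and from 78.9 to 95.01 in Emerald-negative cells, so none was rarely cut. Their median difference was -0.72, against -0.73 for the 2613 covered runs with spacing found once and no placed gene. Of the 1285 runs 272 were called lower (21.2%) and 0 higher, and of the 2613 runs 612 (23.4%) were called lower and 3 higher, beside the 20.5% and 0.206% of all covered dense runs. The profile around the start used 1117 runs. Sites up to 1000 bp downstream of the start gave -0.69 and those upstream -0.65, a difference of -0.033 (-0.066 to -0.00046). The HpaII libraries alone gave -0.015 (-0.031 to 0.00076), an interval that includes 0, and the MspI libraries 0.018. At the start itself, the 200 bp on either side gave -0.81 downstream and -0.78 upstream.

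Among DNA methylation and demethylation enzymes, 3 of the 9 genes with a promoter window lay in the clusters, and 1 was called lower, where 20.5% of all covered dense runs were. The Tet2 run (chr3:133207207-133207984 in mm9, 13 sites) had 131 HpaII and 78 MspI tags in Emerald-high cells and 298 HpaII and 45 MspI tags in Emerald-negative cells. It stood at -1.20 with an SE of 0.31 (Fisher's exact test, adjusted p = 0.0012), with whole tags at 69.2% of its sites, the printed repeat of 42 bp among the others. Its HpaII libraries alone gave -0.43 and its MspI libraries 0.77, against medians of -0.47 and 0.25 over the covered clusters. The Dnmt3a run (chr12:3806473-3808263, 43 sites) had 200 HpaII and 81 MspI tags in Emerald-high cells and 498 HpaII and 97 MspI tags in Emerald-negative cells, a difference of -0.29 (adjusted p = 0.332, Fisher's exact test). Dnmt3b (chr2:153475087-153476040, 20 sites) had 139 HpaII and 56 MspI tags in Emerald-high cells and 335 HpaII and 59 MspI tags in Emerald-negative cells, a difference of -0.43 (adjusted p = 0.234, Fisher's exact test). Scores were 78.02, 84.7 and 84.8 for Tet2, Dnmt3a and Dnmt3b in Emerald-high cells, against 90.2, 87.5 and 88.6 in Emerald-negative cells, so all 3 genes start in highly cut clusters in both fractions.

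Of 61 ribosomal protein genes with a window, 6 were placed in the clusters. All 6 runs were covered, and 1 was called lower and 0 higher, beside 20.5% and 0.206% of all covered dense runs. Their scores ran from 77.9 to 86.1 in Emerald-high cells and from 84.7 to 91.1 in Emerald-negative cells. Rps19, a protein of the small ribosomal subunit, had 110 HpaII and 62 MspI tags in Emerald-high cells and 248 HpaII and 34 MspI tags in Emerald-negative cells, a difference of -1.25 (adjusted p = 0.00283, Fisher's exact test). Of 43 proteasome genes 3 were placed. Psme4, a proteasome activator, was the 1 called lower, with -1.15, while Psma6, a subunit of the core particle, stood at 0.01 with 146 HpaII tags in Emerald-high cells, against 302 in Emerald-negative cells. From complex I and ATP synthase 1 of 57 genes was placed, Atp5h, at -0.31 and not called.

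Developmental transcription factors, listed by gene family name, were as highly cut as the rest. Their expression was not measured here. Of 134 genes 13 were placed, all 13 runs were covered, and the median difference was -0.80, against -0.70 over all covered dense runs. Nkx6-1, a homeobox factor of pancreas and spinal cord, was the 1 called lower, against 20.5% of all covered dense runs, with 240 HpaII and 109 MspI tags in Emerald-high cells and 495 HpaII and 54 MspI tags in Emerald-negative cells (-1.28, adjusted p = 7.62e-05, Fisher's exact test). Foxc1 stood at -0.83, Hoxd9 at -0.92, Pax2 at -0.64 and Six2 at -0.46, none of them called. The scores of the 13 runs lay between 79.5 and 85.9 in Emerald-high cells and between 86.1 and 92.9 in Emerald-negative cells, while over all clusters 96.8% of covered runs scored lower in Emerald-high cells.

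Zinc finger genes gave 22 placed of 333, with 20 runs covered, 5 called lower and 0 higher, a share of lower calls near the 20.5% of all covered dense runs. The 5 were Zfp777 (-1.26), Zfp148 (-1.26), Zfp69 (-1.10), Zfp800 (-1.08) and Zfp341 (-1.02), and the median of the 20 was -0.85. Zfp777 had 286 HpaII and 151 MspI tags in Emerald-high cells and 748 HpaII and 97 MspI tags in Emerald-negative cells. Zfp644, at 0.32, was the 1 covered run of this list above 0. Of 9 pluripotency genes with a window 1 was placed: Klf2, a transcription factor of naive ES cells, whose cluster begins downstream of the window, stood at -0.64 and was not called. None of the 24 germline genes with a window was placed in a cluster. The 5 called zinc finger runs gave -0.63 to -0.50 in the HpaII libraries alone and 0.52 to 0.68 in the MspI libraries, while HpaII alone was -0.41 for Rps19, -0.38 for Psme4 and -0.29 for Nkx6-1, with 0.84, 0.77 and 0.99 in MspI alone. In the calls of Tet2, Rps19, Psme4 and Nkx6-1 the HpaII part was thus no larger than the median of the covered clusters, and the MspI part was larger. None of the calls in these lists was made when the libraries were scaled to dense sites.

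The 8 runs with the largest called fall, among those with similar MspI libraries (within 0.5 on the log2 scale) and whole tags at 90% or more of their sites, had 35 to 73 MspI tags in Emerald-high cells and 26 to 52 in Emerald-negative cells. Abcd3 (chr3:121517805-121518338, 11 sites), for which the window of the downstream start is printed above, had 64 HpaII and 45 MspI tags in Emerald-high cells. In Emerald-negative cells it had 232 HpaII and 32 MspI tags. It stood at -1.56 with an SE of 0.39 (Fisher's exact test, adjusted p = 0.000894). Ivns1abp (chr1:153191589-153192553), a kelch protein, followed at -1.43 from 63 HpaII and 53 MspI tags in Emerald-high cells and 227 HpaII and 41 MspI tags in Emerald-negative cells. The run with the starts of Gfer, a sulfhydryl oxidase of mitochondria, and Noxo1, an organiser of NADPH oxidase, gave -1.39, and the run of Stim1, the calcium sensor of the endoplasmic reticulum, -1.38. D930048N14Rik gave -1.36. Runs without a placed gene were chr15:81575466-81576364 (-1.40), chr8:89269429-89270201 (-1.40) and chr1:107886735-107887602 (-1.37). Scaled to dense sites, the adjusted p of these 8 runs was between 0.570 and 0.760.

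Of the 5 runs with most HpaII tags under the same limits 4 lay on chromosome 8. Egln1 (chr8:127471943-127473864, 48 sites), a prolyl hydroxylase that acts on hypoxia-inducible factor, had 490 HpaII and 208 MspI tags in Emerald-high cells and 1236 HpaII and 224 MspI tags in Emerald-negative cells, a difference of -0.46. Gse1 (chr8:123059728-123061695, 30 sites) had 411 HpaII and 217 MspI tags in Emerald-high cells and 1068 HpaII and 185 MspI tags in Emerald-negative cells, at -0.84 with an SE of 0.17 (Fisher's exact test, adjusted p = 4.85e-05), under the 2-fold limit of a call. The runs chr8:24318204-24319212 and chr8:125565321-125567073 gave -0.16 and -0.56. The fifth run holds Dpm1, a subunit of dolichol-phosphate mannose synthase, with Mocs3 and Gm20716 on chromosome 2, and gave -0.62.

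A small number of clusters were rarely cut, and those did not share the lower value. Of the 3935 covered runs 20 scored under 20 in Emerald-high cells, against 24 in Emerald-negative cells, 18 of them in both. Of those 24, 21 had repeated spacing or whole tags at under 90% of their sites. To keep shared counting error out of the comparison, runs were sorted on 1 side of their sites and measured on the other. The sorting score took HpaII from Emerald-negative cells and pooled the MspI libraries of both fractions. Both sides come from the same libraries, so the sorting still rests on a library that enters the compared difference. Runs under 20 gave 0.47 (0.269 to 0.670), from 419 HpaII tags in Emerald-high cells, against 477 in Emerald-negative cells, and runs over 80 gave -0.73. Rarely minus highly cut runs differed by 1.20 (1.00 to 1.40), of which 1.04 stood in the HpaII libraries. Of the 30 runs under 20 on either side, 10 had repeated spacing and 21 had whole tags at under 90% of their sites, and the comparison restricted to sites with whole tags gave 1.32.

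The 4 runs called higher were among those with fractions of a tag at over 10% of their sites. The run chr12:5057129-5058814 had 44.2 HpaII and 733 MspI tags in Emerald-high cells and 17.7 HpaII and 706 MspI tags in Emerald-negative cells, with whole tags at 63.3% of its sites (difference 1.98, adjusted p = 4.29e-05, Fisher's exact test). The run chr2:6416243-6417073 had 29.5 HpaII tags in Emerald-high cells, against 15.5 in Emerald-negative cells, chr9:121877694-121878734 had 27 and 3, and chr17:84668226-84668954 had 55 and 42, in the same order. Of these called runs, the one on chr9 has repeated spacing. In the run on chr2, 30.8% of the stretches of CCGG distances also occurred elsewhere, and in the run on chr12 8%. With sites of whole tags alone, 2 runs were called higher.

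No run with whole tags and similar MspI libraries was called higher, and the 4 with the lowest adjusted p in that direction were not called. The run chr18:83453800-83454313 had 9 HpaII and 95 MspI tags in Emerald-high cells and 4 HpaII and 94 MspI tags in Emerald-negative cells (difference 1.75, adjusted p = 0.074, Fisher's exact test). The run chr16:41575132-41576670 had 8 HpaII tags in Emerald-high cells, against 3 in Emerald-negative cells, chr3:58469537-58470419 had 10.5 and 7.5, and chr4:58404494-58405555 had 10 and 7. All of these but the run on chr18 have repeated spacing. Under the same limits on whole tags and MspI libraries, and with 50 tags or more in each MspI library, the 5 runs with the lowest Emerald-negative scores were chr18:83453800-83454313, chr3:58469537-58470419, chr1:78796795-78797376, chr8:86462266-86462846 and chr2:168396440-168397095. Named in that order, they scored 9.90, 20.7, 28.8, 60.3 and 54.1 in Emerald-high cells, against 2.64, 8.42, 34.7, 48.4 and 65.7 in Emerald-negative cells. The run with most CCGG sites, chr11:104675576-104676780 with 70, had 23 HpaII and 22 MspI tags in Emerald-high cells and 31 HpaII and 28 MspI tags in Emerald-negative cells, few for its size. Its spacing is repeated too.

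The clusters differed little from shorter and broader ones. Their difference of -0.73 stood against -0.67 for short runs, and mid-sized minus short runs gave -0.056 (-0.0754 to -0.0360), a mean of -0.057 ± 0.059 over chromosomes (SD) and below 0 on 15 of 19. Mid-sized minus broad runs gave 0.042 (0.0142 to 0.0707), but -0.021 in the HpaII libraries alone and -0.025 (-0.0707 to 0.0212) once the 0.1% of sites richest in MspI tags was left out, and it was below 0 on 8 of 18 chromosomes. The direction against broad runs is therefore not settled by these libraries. At the limits of the rule, runs of 500 to under 550 bp stood at -0.73 and those of 450 to under 500 bp at -0.68, and runs of 1900 to under 2000 bp at -0.64 (-0.740 to -0.534) and those of 2000 to under 2100 bp at -0.71 (-0.812 to -0.616). Of 1413 covered dense runs that are not members, those on X and Y included, 209 (14.8%) were called lower and 7 higher. Among covered autosomal runs, 197 of 1297 short and 9 of 71 broad ones were called lower. Counting error had a root mean square of 0.427 in covered short runs and 0.214 in covered broad runs, against 0.345 in the clusters. Why the shares of calls differ was not tested.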

How the data were processed

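HELP tagging libraries of Emerald-high and Emerald-negative MC1-ZE7 cells, each cut with HpaII or MspI, were used as deposited by the authors. Per the file headers and values, each file holds a library total and estimated counts of tags for every CCGG position, as 2 columns and their sum, with no scaling to depth. A few sites hold fractions of a tag. The aligner was not given in the sources used here, and positions are in mm9, per the submitters' processing notes.

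The sums of a run's dense sites were scaled to library totals. Covered runs had at least 20 tags in each MspI library. Runs were compared by a two-sided Fisher's exact test on their sums, with sites holding fractions of a tag included and each sum rounded. The null odds ratio was set by the totals, with Benjamini-Hochberg adjustment over 5348 covered dense runs. A call needed an adjusted p under 0.05 and 2-fold with a pseudocount of 1. Intervals are 95%, Poisson for log2 values and Clopper-Pearson for shares. They cover counting error only, and tags have no molecular identifiers. Printed runs are in mm9, from the first to the last CCGG.

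Named runs had whole tags at 90% or more of their sites and MspI libraries within 0.5 (log2): the 8 called lower with the largest fall, the 4 with the lowest adjusted p among the higher ones (none was called), the 5 with most HpaII tags, the 5 with the lowest Emerald-negative score among those with at least 50 tags in each MspI library, and the run with most CCGG sites. The members, lists and tests were chosen with earlier results of these data known. The analyses of spacing, sides of a cut and chromosome depth were added after seeing the data. The test was checked on simulated Poisson counts at these library totals. By adjusted p under 0.05 in the right direction, it found 34% of 100 runs changed 2-fold and 95% of 100 changed 4-fold. Of 5148 unchanged runs 0.194% passed. Many single runs with a 2-fold change can therefore be missed at this depth. Scripts ran in Python 3.11.15 with scipy 1.17.1, numpy 2.4.6, pandas 2.3.3 and matplotlib 3.10.9.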

Additional observations from a re-analysis of the deposited data

Results flagged for a closer look

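The comparisons of runs leave out 2 kinds of data that hold HpaII signal. The 1533 mid-sized runs below the minimum of 20 MspI tags held 15705 HpaII and 8384 MspI tags in Emerald-high cells and 37125 HpaII and 6663 MspI tags in Emerald-negative cells. Their log2 HpaII/MspI difference was -0.81 (-0.864 to -0.757), against -0.73 for the covered runs. HpaII alone gave -0.49, against -0.48 for the covered runs, and MspI alone 0.32, against 0.25. The minimum is set on MspI tags, which enter the difference, so the 2 sets were chosen on a part of the compared value. The 245 runs of the same size on chromosomes X and Y held 4871 HpaII and 2395 MspI tags in Emerald-high cells and 10923 HpaII and 2050 MspI tags in Emerald-negative cells, a difference of -0.63 (-0.726 to -0.530). Of the 1533 runs, 818 held no tag in any library. The design has no control library, and both kinds are given because tags outside the comparisons were found in them. Why they differ from the covered autosomal runs was not tested.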

How the results depend on the processing

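No paired analysis was possible because each combination of fraction and enzyme has 1 library, and no replicate could be left out. Scaled to dense sites, the pooled difference was -0.0087, the median run difference -0.0084, runs called lower 2, and median scores 51.4 for Emerald-high and 51.9 for Emerald-negative cells. HpaII alone gave -0.476 (pooled), -0.475 (median), -0.0849 (inner minus outer) and -0.0210 (mid-sized minus broad runs, reversed). Leaving out the 0.1% of sites richest in MspI tags, mid-sized minus broad runs reversed to -0.0248, and with whole tags it was 0.0741 and 2 runs were called higher. Dense sites of 8 or more gave -0.685 (pooled), -0.676 (median), 12 runs called higher and an Emerald-negative score of 88.9. Dense sites of 12 or more gave -0.767, -0.764, a score of 89.5 and mid-sized minus short runs of -0.0237. Narrower span limits, from 750 bp, left 482 runs called lower and an Emerald-negative score of 89.4. At least 50 MspI tags gave a median difference of -0.667, 2 runs called higher, 210 lower and an Emerald-negative score of 88.8. Counts of calls under other density, span or tag limits come from other sets of runs. Their shares were not computed, so they cannot be set directly against the 4 and 890 calls. Sides with the next CCGG 40 bp or more away gave -0.652. The causes were not tested. Rarely minus highly cut runs kept their value within its interval under all 6 alternatives. Scaling to autosomal sites, gaps of 250 or 1000 bp, thinning, 10 MspI tags, pseudocounts of 0.5 and 2, the overdispersion of 1.20 between MspI libraries, members with spacing found once and all sites between the first and the last changed no value beyond its interval and no count by over 1.5 times. Depth limits single runs: a covered run has a median of 46 MspI tags in Emerald-negative cells.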
